A study of Rattus norvegicus with 11 samples.

Results

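Chemokines and their receptors formed 47 of the 17257 genes in the deposited table, taken by gene symbol as every Ccl, Cxcl, Ccr or Cxcr followed by a number. They comprised 32 ligands (20 Ccl and 12 Cxcl genes) and 15 receptors (9 Ccr and 6 Cxcr genes). The study compared ventricular myocytes of male and female rats, and all animals were wild-type Sprague Dawley rats aged 3 to 4 months. Hearts were perfused on a Langendorff apparatus to free the cells, which stayed untreated on dishes for 45 minutes before they were frozen. Males gave 6 libraries and females 5, each a biological replicate by the labels, and the labels describe no purification of myocytes beyond isolation and plating. Ccr2 and Ccr8 had no row under those symbols and are not analysed here, and the receptor once named Cxcr7 has its row as Ackr3, outside the symbol rule.

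Chemokines are small secreted proteins that direct the movement of leukocytes along concentration gradients. They bind G protein-coupled receptors, and CC and CXC ligands are told apart by the spacing of their first cysteines. Several inflammatory members are rapidly induced by interleukin-1, tumour necrosis factor or interferon, in part through NF-kappaB, whereas homeostatic members such as Cxcl12 are produced steadily by stromal and endothelial cells. In the heart, Ccl2 and its relatives recruit monocytes and Cxcl1 and Cxcl2 recruit neutrophils after injury.

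The promoters of 6 ligands are shown. They were chosen because their genes lie in shared blocks and hold motifs searched for, so a match in them follows from that choice. Another reason was that 5 of the 6 encode inflammatory ligands with a mean above 50. Of the 6, Ccl12 alone passed the authors' test between the sexes, and no promoter was on hand for Ccl2, Ccl3 or Ccl4. Each window shown runs from 250 bases before to 50 bases from the gene's start on, in the RefSeq assembly GRCr8, written in the direction of transcription. Capitals mark the letters GGGNNNTTCC, an NF-kappaB-like motif, and TATAAA, a core promoter motif, each on either strand.
Ccl12, chr10:67567626-67567925, plus strand: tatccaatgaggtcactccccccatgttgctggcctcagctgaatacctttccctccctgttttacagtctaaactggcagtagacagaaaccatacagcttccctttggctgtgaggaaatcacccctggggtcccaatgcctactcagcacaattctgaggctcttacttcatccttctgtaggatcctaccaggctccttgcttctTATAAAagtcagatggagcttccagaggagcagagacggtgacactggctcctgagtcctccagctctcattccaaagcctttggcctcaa
Ccl7, chr10:67513845-67514144, plus strand: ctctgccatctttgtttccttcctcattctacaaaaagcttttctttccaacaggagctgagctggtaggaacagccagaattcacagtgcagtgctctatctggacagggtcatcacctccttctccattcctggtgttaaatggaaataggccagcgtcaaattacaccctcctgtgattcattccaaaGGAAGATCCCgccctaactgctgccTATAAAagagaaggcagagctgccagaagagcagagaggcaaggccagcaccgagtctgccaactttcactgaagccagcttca
Cxcl2, chr14:17467206-17467505, minus strand: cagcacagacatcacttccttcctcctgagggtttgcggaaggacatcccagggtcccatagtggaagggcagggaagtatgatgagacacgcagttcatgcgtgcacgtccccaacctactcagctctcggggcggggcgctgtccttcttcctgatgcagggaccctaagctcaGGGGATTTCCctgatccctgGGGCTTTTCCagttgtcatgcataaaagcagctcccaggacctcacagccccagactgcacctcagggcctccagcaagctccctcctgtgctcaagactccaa
Cxcl1, chr14:17479272-17479571, minus strand: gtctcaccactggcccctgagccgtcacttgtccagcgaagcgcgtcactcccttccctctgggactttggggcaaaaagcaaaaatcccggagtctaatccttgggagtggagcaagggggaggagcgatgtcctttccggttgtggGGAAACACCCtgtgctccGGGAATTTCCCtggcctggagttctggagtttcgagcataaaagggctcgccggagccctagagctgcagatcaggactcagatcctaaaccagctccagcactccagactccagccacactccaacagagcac
Cxcl10, chr14:15988816-15989115, plus strand: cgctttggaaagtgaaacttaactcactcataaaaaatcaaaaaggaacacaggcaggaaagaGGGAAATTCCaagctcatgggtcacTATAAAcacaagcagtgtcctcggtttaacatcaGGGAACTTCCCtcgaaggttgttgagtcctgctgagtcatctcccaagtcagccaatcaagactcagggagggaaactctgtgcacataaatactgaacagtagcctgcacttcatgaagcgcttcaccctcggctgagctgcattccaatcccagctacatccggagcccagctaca
Cxcl11, chr14:15973478-15973777, plus strand: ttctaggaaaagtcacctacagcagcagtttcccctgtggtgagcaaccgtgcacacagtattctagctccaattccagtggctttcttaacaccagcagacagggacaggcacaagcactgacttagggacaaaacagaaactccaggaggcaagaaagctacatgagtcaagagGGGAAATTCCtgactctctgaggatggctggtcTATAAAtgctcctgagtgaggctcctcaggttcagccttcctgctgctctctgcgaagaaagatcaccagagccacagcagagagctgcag

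The NF-kappaB-like letters began 74 and 54 bases before the start of Cxcl2. In Cxcl1 they began 102, 84 and 83 bases before the start. The first and last of these matches lay on the opposite strand, and the last overlapped the one before it. Cxcl10 held them 187, 128 and 127 bases before its start, again with the last match overlapping on the opposite strand. Cxcl11 held them at 74 bases, and Ccl7 at 59 bases on the opposite strand. The Ccl12 window held no such letters and held TATAAA 41 bases before the start. Promoters were on hand for 35 members, and 10 of them (28.6%) held GGGNNNTTCC against 5.37% of 33469 promoters of the same length. The spelling of the motif was looked at with matches in view, and other spellings gave 6 members (17.1%) against 1.53% for GGGNNTTTCC and 14 members (40%) against 17.9% for GGGNNNNTCC. TATAAA was found in 10 members (28.6%) and in 14.2% of all promoters. The interferon-response-like letters GAAANNGAAA were in 2 members (5.71%) and 3.92% of promoters, the AP-1-like letters TGANTCA in 6 members (17.1%) and 7.33%, and the STAT-like letters TTCNNNGAA in 6 members (17.1%) and 8.87%. A match describes these letters only, and no binding was measured.

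Of the 47 members, 37 had a mean above 0 over all libraries and 10 were listed at 0 in both sexes. Ligands were detected in 27 of 32 cases and receptors in 10 of 15. The members listed at 0 were Ccl25, Ccl26, Ccl28, Cxcl6, Cxcl17, Ccr1l1, Ccr3, Ccr4, Ccr6 and Cxcr1. Their share, 21.3% of the members, stood beside 22.7% of all rows. Being listed at 0 is not the same as absence, since Ndufa1 and Polr2h, subunits of the respiratory chain and of RNA polymerases, were also listed at 0 in the authors' deposited table. Values are gene counts divided by a size factor for each library and are not scaled by gene length, so levels are not ranked between genes.

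Among the detected members, 8 had a mean below 1 normalized count, 10 a mean from 1 to below 10, 6 a mean from 10 to below 50, and 13 a mean of at least 50. Of those 13 members, 12 were ligands and the single receptor was Cxcr4. Only Cxcl1, Cxcl11 and Cxcl12 of the 37 had an overall mean of at least 1000. The receptors Ccr1 and Ccr10 each had a mean between 10 and 50.

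**Figure D1:**
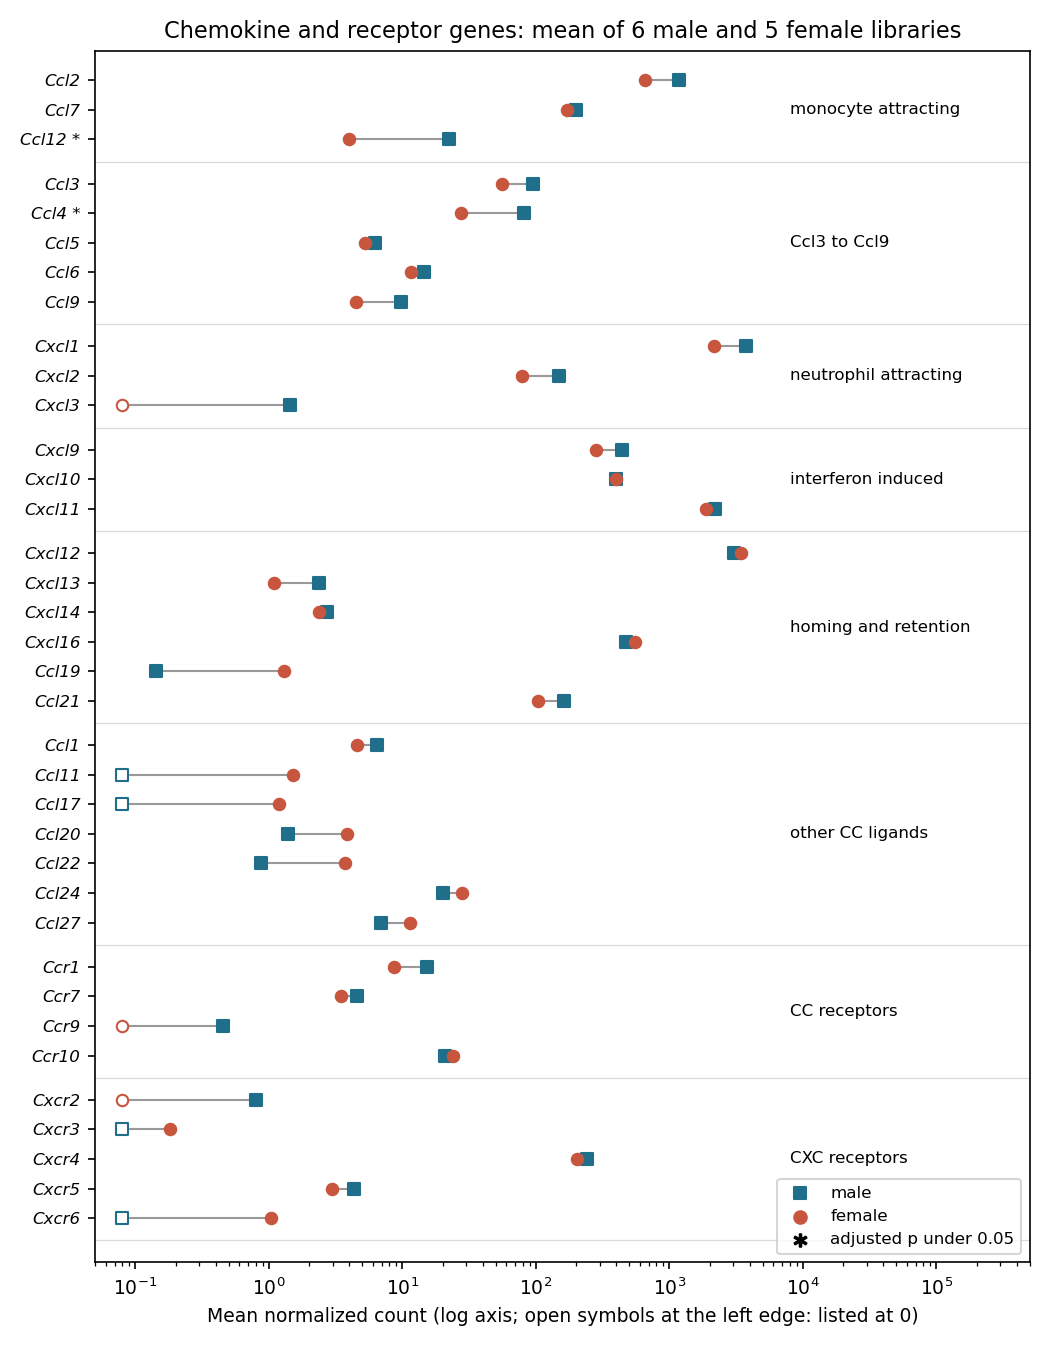
Mean normalized count of 36 of the 37 detected members on a log axis, with squares for the mean of 6 male libraries, circles for the mean of 5 female libraries, and open symbols at the left edge for a mean listed at 0. Stars mark Ccl12 and Ccl4, whose adjusted p was under 0.05, and 24 of all 37 members have the lower mean in females (25 when rescaled by summed means, with Cxcl10 added).

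Between the sexes, 2 of 37 members passed the authors' DESeq test at an adjusted p under 0.05, and both, Ccl12 and Ccl4, were lower in females. These 2 members are 5.41% of the 37, and 14.5% of all 13346 genes with a mean above 0 passed in the same test. By direction, 7.76% of all genes passed as lower in females and 6.71% as higher, and 0 members passed as higher. At an unadjusted p under 0.05 there were 5 members, Ccl12, Ccl4, Ccl3, Cxcl2 and Cxcl9, all with the lower mean in females and 0 with the higher, which is 13.5% of members beside 14.6% of all genes that were lower in females at that limit. Restricted to a mean of at least 10, the 2 members are 10.5% of 19, beside 9.77% of genes at that level called lower in females. At that level the 5 members of 19 lower at an unadjusted p under 0.05 stand beside 1919 of 10519 genes. Group means were lower in females for 24 of 37 members (64.9%), or 25 when rescaled by summed means, where Cxcl10 changes direction, beside 50.9% of all genes. The median log2 fold change, female over male, was -0.35 over the 30 members with a mean above 0 in both sexes and -0.0099 over all genes. For members with a mean of at least 50 it was -0.63, with 10 of 13 lower in females, beside 50.2% of genes at that level. These are bulk libraries, in which fewer cells of a type and less RNA per cell cannot be told apart.

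**Figure D2:**
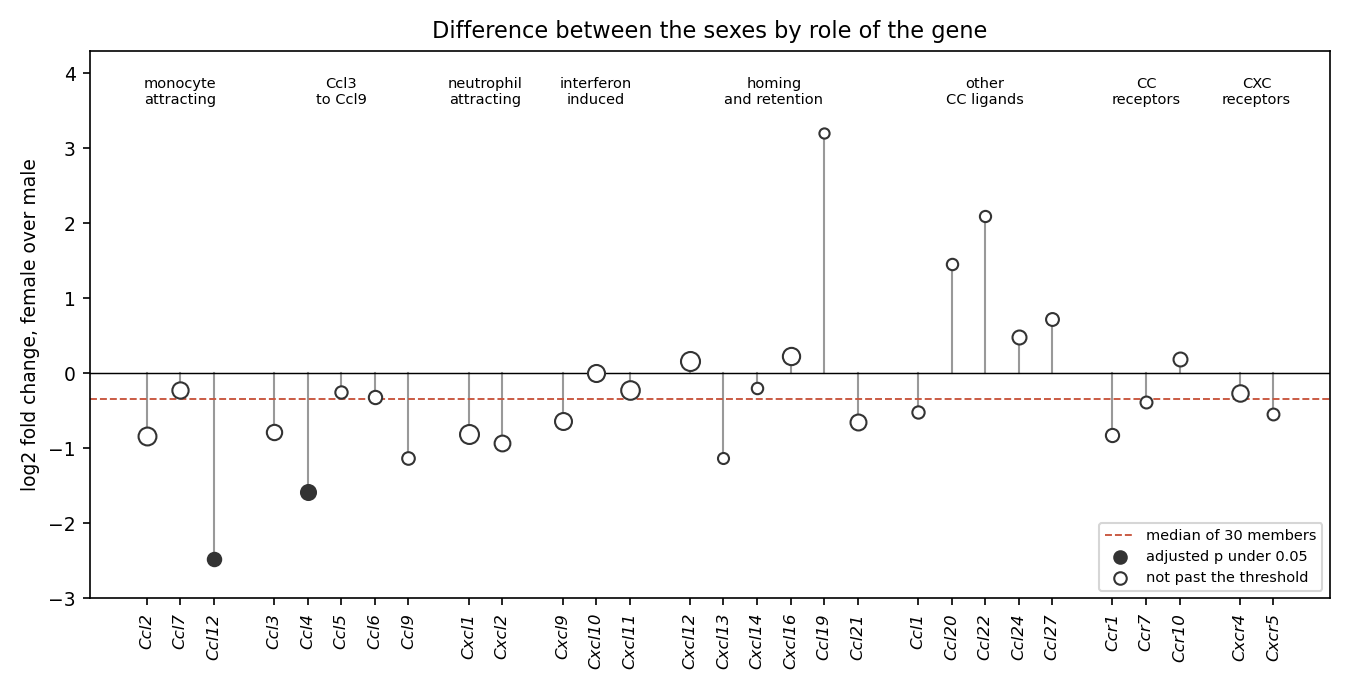
Log2 fold change, female over male, of 29 of the 30 members with a mean above 0 in both sexes, ordered by role, with symbol size growing with the overall mean. Filled symbols are Ccl12 at -2.48 and Ccl4 at -1.58, the members past the threshold, and the dashed line is the median of all 30 at -0.35.

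The deposited table holds group means. Behind those means, the whole reads of single libraries could be worked out from the printed digits for 26 of the 37 detected members in all 11 libraries and for 3 more in females alone. Libraries are named here by sex and by a letter in order of falling size factor, not by replicate number. The 8 members with no recovered reads were Ccl2, Cxcl1, Cxcl9, Cxcl10, Cxcl11, Cxcl12, Cxcl16 and Cxcr4, all with high means, so no spread between libraries is known for them. Size factors ran from 0.811 to 1.17 in males and from 0.972 to 1.14 in females. The reads in recovered genes numbered 82493 to 117660 per male library and 97337 to 111180 per female library.

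Ccl12, a monocyte-attracting ligand that shares a block of neighbouring genes with Ccl2, Ccl7, Ccl11 and Ccl1 on chromosome 10, had the larger fold change of the pair, and Ccl4 the larger difference in normalized counts. Its normalized counts in the male libraries a to f were 26.4, 16.3, 24.8, 13.4, 28.1 and 24.7, and in the female libraries a to e 4.40, 11.8, 3.83, 0 and 0. Every female library lay below every male library, a separation found in 1.07% of the 2142 recovered genes with a mean of at least 10. The means were 22.3 ± 5.94 in males (SD, n = 6) and 4.00 ± 4.81 in females (SD, n = 5), from 131 and 22 reads. In the authors' deposited table the male mean was 5.57-fold the female mean, a log2 fold change of -2.48 with a DESeq adjusted p of 0.0211. The exact two-sided permutation test over all 462 arrangements of the sex labels gave p = 0.00433, the smallest it can give, and 0.189 after Benjamini-Hochberg adjustment over the 2142 genes. Too few genes reached that p for any adjusted permutation p to fall under 0.05. With limma on log2 of the normalized count plus 1, over those same genes, the log2 fold change was -2.82 (SE 0.773, 95% confidence interval -4.42 to -1.21) with an adjusted p of 0.082, which did not pass. At that threshold limma called 18 of the 2142 genes (0.84%), where the authors' test called 95 (4.44%), and 0 of the 8 members tested. At an unadjusted p under 0.05 limma called 3 of these 8, Ccl12, Ccl4 and Ccl3, beside 17.2% of genes, and the permutation test called those 3 as well, beside 15.5% of genes. Without female library b, whose 11.8 was the highest female value, limma gave -3.32 with an adjusted p of 0.0469. Leaving out any other single library gave a limma adjusted p from 0.0847 to 0.186, which did not pass.

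Ccl2, a monocyte-attracting ligand, averaged 1182 in males against 659 in females by the authors' deposited table (log2 fold change -0.84, DESeq adjusted p 0.337). That difference did not pass the test. Ccl7, which shares a receptor with Ccl2, averaged 199.8 in males against 171 in females by the authors' deposited table (DESeq adjusted p 0.826). The female libraries of Ccl7, in which reads could be recovered, stood at 89.0, 247, 97.6, 280 and 140 normalized counts (171 ± 87.6, SD, n = 5). The female spread alone exceeded the difference between the 2 means. Ccl2, Ccl7 and Ccl12 are similar in sequence, and the sources used here do not say how reads that fit several genes were counted.

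Ccl4, known as macrophage inflammatory protein 1 beta, was the other member past the authors' threshold. Normalized counts in male libraries a to f were 81.8, 25.3, 80.0, 130.1, 46.4 and 126, and in female libraries a to e they were 23.8, 35.3, 37.3, 24.7 and 15.4. Male library b lay inside the female range, and the other 5 male libraries lay above every female library. The means were 81.6 ± 41.7 in males (SD, n = 6) and 27.3 ± 9.00 in females (SD, n = 5), a 2.99-fold ratio of males to females. The authors' deposited table gave a log2 fold change of -1.58 and a DESeq adjusted p of 0.0275. Over the libraries the exact two-sided permutation p was 0.0173, and 0.219 after adjustment over the 2142 genes. With limma the log2 fold change was -1.41 (SE 0.403, 95% confidence interval -2.25 to -0.57) with an adjusted p of 0.0882. Leaving out male library b, the lowest male value, limma gave -1.70 with an adjusted p of 0.0447. With any other single library left out, the limma adjusted p was from 0.0755 to 0.186 and did not pass.

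Ccl3, the macrophage inflammatory protein 1 alpha gene that lies next to Ccl4 in RefSeq, signals through Ccr1 among other receptors. Male libraries a to f held 117, 74.2, 78.1, 71.2, 112 and 117 normalized counts, and female libraries a to e held 34.4, 67.9, 35.4, 79.2 and 59.7. Female library d lay inside the male range, and the other 4 female libraries lay below every male library. Ccl3 averaged 94.9 ± 22.6 in males (SD, n = 6) and 55.3 ± 19.9 in females (SD, n = 5). In the authors' deposited table the log2 fold change was -0.78, with a p of 0.0152 and a DESeq adjusted p of 0.0819. The exact permutation p was 0.0216, and 0.219 after adjustment. limma gave -0.81 (SE 0.276) with an adjusted p of 0.148, so Ccl3 passed neither the DESeq nor the limma test after adjustment.

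The 3 remaining ligands of that block, Ccl5, Ccl6 and Ccl9, had fewer reads, between 61 and 148 over all libraries. Ccl5, which attracts T cells and monocytes, ranged from 0.852 to 12.3 in males (median 6.07) and stood at 0, 7.24, 8.61, 5.14 and 5.15 in females, and the sexes overlapped widely (exact permutation p = 0.723). Ccl6 ranged from 9.86 to 19.6 in males (median 13.8) and stood at 12.3, 19.0, 0, 16.5 and 10.3 in females, with overlap of the sexes and an exact permutation p of 0.476. Without female library c, the one at 0, the limma log2 fold change of Ccl6 turned from -0.76 to 0.023. Ccl9 lay between 6.20 and 13.4 in males (median 9.64). Female libraries of Ccl9 stood at 2.64, 13.6, 0, 0 and 6.17, so that 4 lay below every male library and 1 above every male library. The exact permutation p for Ccl9 was 0.0779, and 0.402 after adjustment over the 2650 recovered genes with a mean of at least 5.

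Macrophages and other leukocytes make Ccl12, Ccl3 and Ccl4, so their markers are given beside these ligands. Of 14 macrophage markers with a mean above 0, 2 passed as lower in females, namely Mrc1 at a log2 fold change of -1.18 and Mpeg1 at -0.94 by the authors' deposited table, and 0 as higher. Lyz2 and Csf1r had the highest means of that list and did not pass, and Marco was listed at 0. The median log2 fold change of the list was -0.30, and Itgam, Fcgr1a, Cd14 and C1qc had the higher mean in females. Over all genes with a mean above 0, 7.76% passed as lower in females and 6.71% as higher. The summed mean of the 14 macrophage markers was 1525 in males and 1155 in females, and over the 10 markers with recovered reads the sum ranged from 405 to 590 in male and from 215 to 484 in female libraries. Of 9 pan-leukocyte markers, Lcp1, which with Laptm5 had the highest means, passed as lower in females and 0 as higher, and Cd52 was listed at 0. The median log2 fold change of these 9 was -0.34, and Coro1a, Itgb2 and Spi1 had the higher mean in females. The summed means of those 9 were 693 and 505, and over 8 markers with recovered reads the sum ranged from 216 to 375 in male and from 159 to 284 in female libraries. Mpeg1, which encodes a pore-forming protein of macrophages, had 83.0 to 124 normalized counts in male libraries (median 93.4) and 59.0, 37.1, 86.1, 47.3 and 26.8 in female libraries, with only female library c in the male range (exact permutation p = 0.013, or 0.208 after adjustment). The sexes also overlapped for the macrophage marker Cd68 (exact permutation p = 0.333). Among pan-leukocyte markers with overlapping sexes, the exact permutation p was 0.411 for Ptprc, 0.338 for Laptm5, 0.216 for Tyrobp and 0.039 for Cd53. The part of these cells in the values of Ccl12, Ccl4 and Ccl3 was not tested.

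**Figure D3:**
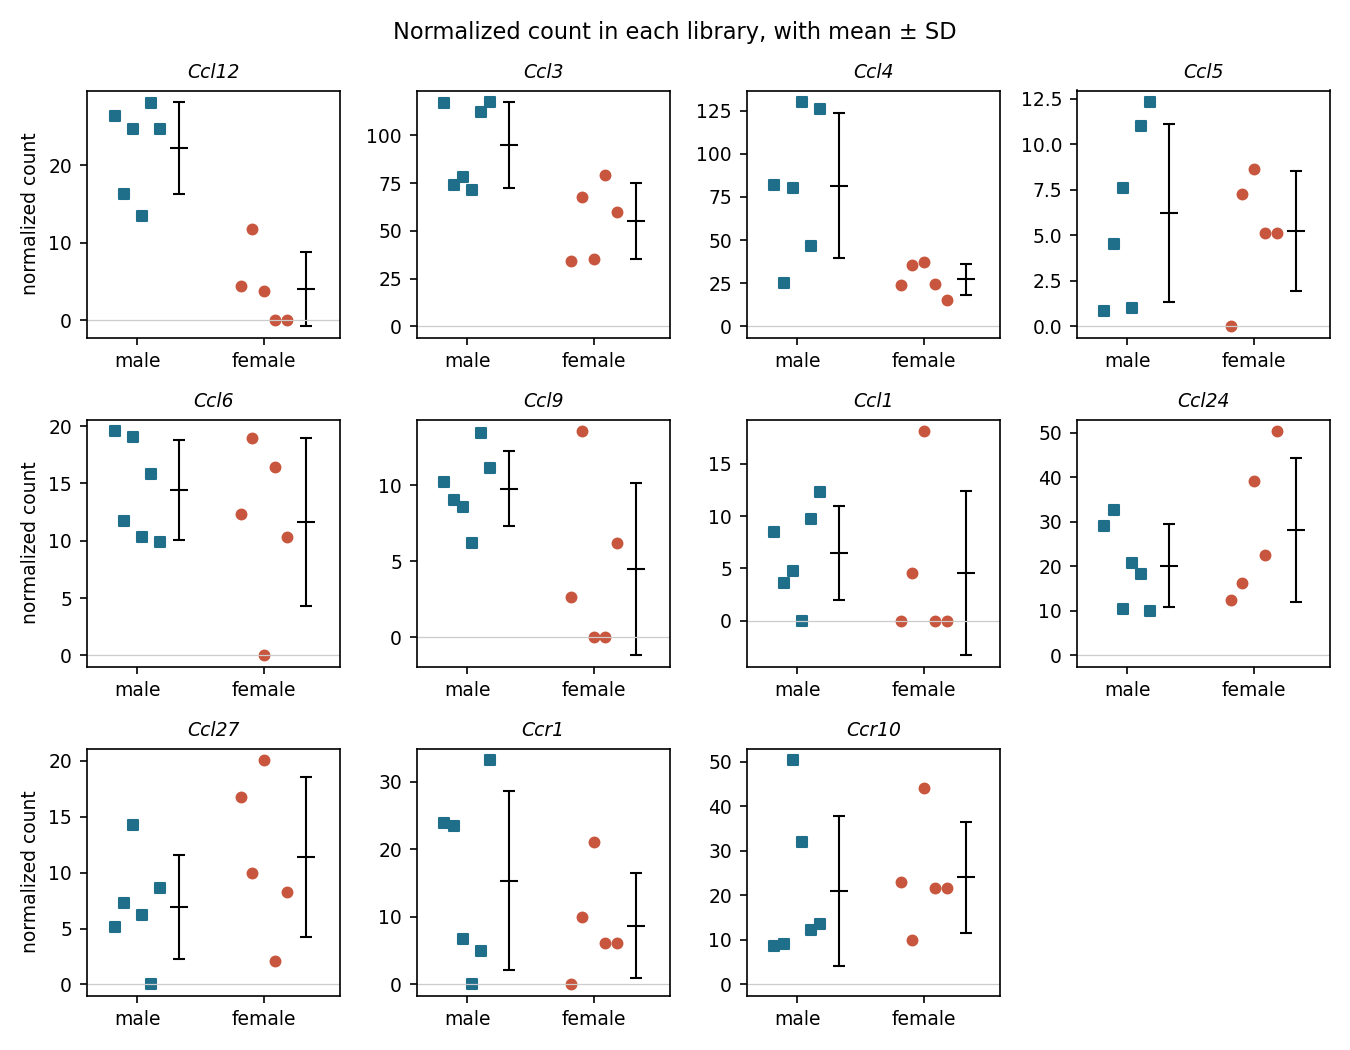
Normalized count of 11 members in each library, among those with recovered reads and a mean of at least 5, with squares for 6 male and circles for 5 female libraries and bars for the mean ± SD. The sexes are fully apart for Ccl12, and their ranges overlap for the other 10 members.

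The neutrophil-attracting ligands Cxcl1 and Cxcl2 are neighbours on chromosome 14 and signal through Cxcr2. Cxcl1 averaged 3763 in males against 2157 in females by the authors' deposited table (log2 fold change -0.80, DESeq adjusted p 0.25). Cxcl2 averaged 148 in males against 78.1 in females by the authors' deposited table, for which the log2 fold change was -0.92, the p 0.0253 and the DESeq adjusted p 0.115. Neither passed the threshold. The female libraries of Cxcl2 held 38.8, 83.3, 140, 50.4 and 78.2 normalized counts (78.1 ± 39.2, SD, n = 5), with the highest, library c, more than 3 times the lowest. Cxcl3, a close relative, had 7 reads in male library f and 0 in the other 10 libraries. Cxcl6, of the same block, was listed at 0. Their receptor Cxcr2 had 5 reads in all, 2 in male library a and 3 in male library d, and its neighbour Cxcr1 was listed at 0.

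The interferon-induced ligands Cxcl9, Cxcl10 and Cxcl11 lie side by side on chromosome 14 and share the receptor Cxcr3 of activated T cells. Cxcl9 averaged 438 in males against 282 in females by the authors' deposited table, for which the log2 fold change was -0.63, the p 0.0266 and the DESeq adjusted p 0.119. By the authors' deposited table, Cxcl10 averaged 399 in both sexes (log2 fold change 0.0017, DESeq adjusted p 0.976). Cxcl11 averaged 2179 in males against 1864 in females by the authors' deposited table (log2 fold change -0.22, DESeq adjusted p 0.80). None of the 3 neighbours passed the threshold, and whether their fold changes differed from each other was not tested. Their receptor Cxcr3 had 1 read in the 11 libraries, in female library b.

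Ligands that hold or guide cells in tissue made up the next group. Cxcl12, the stromal ligand of Cxcr4, averaged 3062 in males against 3416 in females by the authors' deposited table (log2 fold change 0.16, DESeq adjusted p 0.718). Its receptor Cxcr4 averaged 242 in males against 202 in females by the authors' deposited table (log2 fold change -0.26, DESeq adjusted p 0.503). Cxcl16, a ligand made as a membrane-bound protein that binds Cxcr6, averaged 469 in males against 551 in females by the authors' deposited table (log2 fold change 0.23, DESeq adjusted p 0.587). Cxcr6 itself had 5 reads, all in female library d. Ccl21, made by lymphatic endothelium and known to guide cells that carry Ccr7, averaged 163 in males against 104 in females by the authors' deposited table (log2 fold change -0.65, DESeq adjusted p 0.33). In the female libraries Ccl21 stood at 52.0, 185, 66.0, 114 and 104 normalized counts (104 ± 51.9, SD, n = 5). Near-identical copies of Ccl21 are known in the mouse, and if the rat has them too the count is uncertain. Ccl19, which shares Ccr7 with Ccl21, had 8 reads in all. Cxcl13, the B cell ligand of Cxcr5, had 21 reads and Cxcl14 had 30.

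Among the other CC ligands, Ccl24 and Ccl27 were counted often enough to compare. Ccl24, an eosinophil-attracting ligand, ranged from 9.86 to 32.6 in males (median 19.5) and stood at 12.3, 16.3, 39.2, 22.6 and 50.4 in females. Its means were 20.1 ± 9.33 (SD, n = 6) and 28.2 ± 16.1 (SD, n = 5), with overlapping sexes and an exact permutation p of 0.329. Ccl27, a ligand of Ccr10, ranged from 0 to 14.3 in males (median 6.72) and stood at 16.7, 9.96, 20.1, 2.06 and 8.23 in females (exact permutation p = 0.242). Ccl1, a T cell ligand, ranged from 0 to 12.3 in males (median 6.64) and had reads in 2 female libraries alone, at 4.53 and 18.2 (exact permutation p = 0.645). These 3 genes overlapped between the sexes.

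Of the receptors besides Cxcr4, Ccr1 and Ccr10 are given by library. Ccr1, a receptor of Ccl3 and other inflammatory ligands, ranged from 0 to 33.3 in males (median 15.1) and stood at 0, 9.96, 21.1, 6.17 and 6.17 in females. Its means were 15.4 ± 13.3 (SD, n = 6) and 8.67 ± 7.79 (SD, n = 5), and the exact permutation p was 0.359. The limma log2 fold change of Ccr1 was -0.59 (95% confidence interval -2.63 to 1.46), and 0.093 without female library a. Ccr10, the receptor of Ccl27 and Ccl28, ranged from 8.52 to 50.5 in males (median 12.9) and stood at 22.9, 9.96, 44.0, 21.6 and 21.6 in females (exact permutation p = 0.727). In both receptors the SD among male libraries exceeded the difference between the means of the sexes. Ccl28, the other ligand of Ccr10, was listed at 0.

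The 18 members with a mean above 0 and below 10 had reads in 1 to 10 of the 11 libraries. Of the 26 members with reads recovered in every library, Ccl3, Ccl4, Ccl24 and Ccr10 had a read in all 11, and 11 members had reads in 5 libraries or fewer. Male libraries had reads for 4 to 10 of these 18 members and female libraries for 4 to 13, with 29 to 71 and 26 to 90 reads. Ccr7, the receptor of Ccl19 and Ccl21, had 46 reads, 24 of them in male library d and 14 in female library a. Cxcr5, the receptor of Cxcl13, had 45 reads, 23 of them in male library a. Ccl20 had 29 reads with 15 in female library c, Ccl22 had 25 reads with 11 in female library c, and Ccl11 had 8 reads with 7 in female library c. Ccl17 had 6 reads in 2 female libraries and Ccr9 had 3 reads in male library b. Ccl11, Ccl17, Cxcr3 and Cxcr6 were listed at 0 in males, and Cxcl3, Cxcr2 and Ccr9 in females. With totals of 1 to 8 reads for these 7 genes, no difference between the sexes was detectable at this depth.

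**Figure D4:**
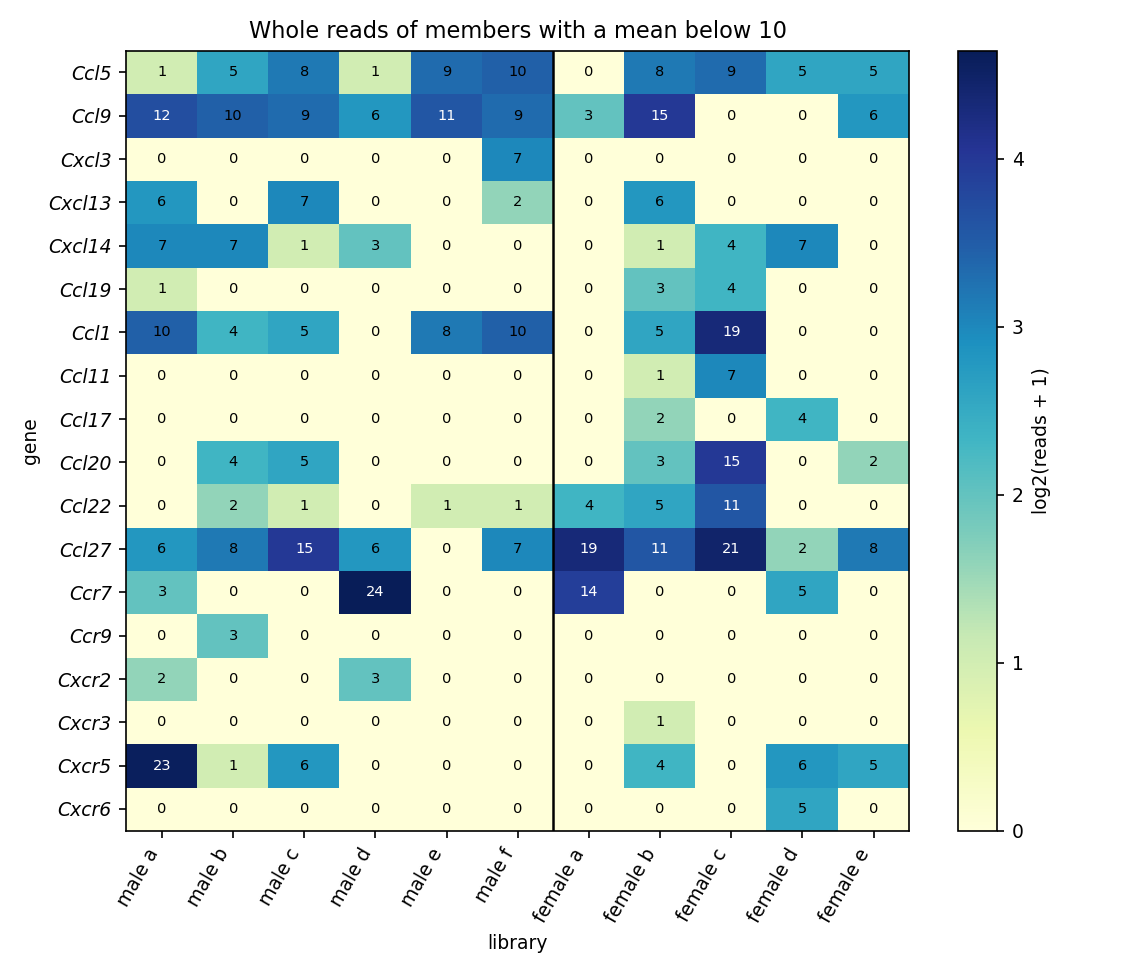
Whole reads recovered for the 18 members with a mean above 0 and below 10, one row per gene and one column per library, with male libraries left and female libraries right of the black line and colour for log2 of reads plus 1. Many cells are 0, and the reads of a gene often come from 1 library, such as 24 of the 46 reads of Ccr7 in male library d.

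Chemokine family genes named outside the pattern were read beside the members. Of 12 with a mean above 0, 1 passed as higher in females, Cx3cl1, the membrane-bound ligand fractalkine, and 0 passed as lower. Cx3cl1 averaged 430 in males against 782 in females by the authors' deposited table (log2 fold change 0.86, DESeq adjusted p 0.00615). Its receptor Cx3cr1 had 26 reads in all libraries. The decoy receptor of Cxcl12 and Cxcl11, Ackr3, averaged 1788 in males against 1723 in females by the authors' deposited table (DESeq adjusted p 0.952). Cd74, the receptor for Mif, averaged 11125 in males against 12856 in females by the authors' deposited table (DESeq adjusted p 0.287). The median log2 fold change of this list was 0.022. Among all genes with a mean above 0, 6.71% passed as higher in females and 7.76% as lower.

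Of 23 genes for signalling below chemokine receptors, 3 passed as lower in females and 0 as higher, with a median log2 fold change of -0.027. They were Gnai3, an inhibitory G protein subunit, Gng10, a G protein gamma subunit, and the kinase Jak2. The authors' deposited table gave log2 fold changes of -1.11 for Gnai3, -0.79 for Gng10 and -0.87 for Jak2, and DESeq adjusted p-values of 0.00169, 0.0293 and 0.00464. Gnai2 and Stat3, the members of the list with the highest means, stood at log2 fold changes of -0.027 and 0.20 by the authors' deposited table and did not pass. Of all genes with a mean above 0, 7.76% passed as lower in females and 6.71% as higher.

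Inducers of chemokines and genes of the NF-kappaB route were 30 with a mean above 0, of which 3 passed as lower in females and 2 as higher. The shares over all genes with a mean above 0 were 7.76% lower and 6.71% higher. The median log2 fold change of the list was -0.31. Il1b, the interleukin that induces many of these ligands, had 63.4 to 124 normalized counts in male libraries (median 96.3) and 14.98, 64.3, 35.4, 30.9 and 38.1 in female libraries. Only female library b reached into the male range. The authors' deposited table gave Il1b a log2 fold change of -1.34 and a DESeq adjusted p of 0.00354, and the exact permutation p was 0.00866, or 0.208 after adjustment. Pycard, an adaptor of the inflammasome that matures Il1b, and the receptor Il1r1 were also lower by the authors' deposited table, Pycard at a log2 fold change of -1.63 (DESeq adjusted p 0.00661) and Il1r1 at -0.57 (0.0183). Rela and Nfkb2, NF-kappaB subunits, were higher in females by the authors' deposited table, Rela at a log2 fold change of 0.72 (DESeq adjusted p 0.000138) and Nfkb2 at 0.74 (0.00144). Nfkbia and Nfkbiz, the genes of the list with the highest overall means (4958 and 2405 by the authors' deposited table), did not pass. Tnf had 2 reads in all, in 1 female library.

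Other markers were read because endothelium and fibroblasts also make chemokines. The sex label was checked with the Y-linked gene Eif2s3y, whose mean was 2215 in males but 0.578 in females by the authors' deposited table. All 11 measured markers of ventricular myocytes were present, with a summed mean of 3722930 in males and 4509620 in females, and Myh6, Ckm and Ryr2 passed as higher in females. Pln and Tnnt2 of that list had the lower mean in females. Fibroblast markers passed as lower in females in 3 of 11 cases, Col3a1, Postn and Col1a1, with a median log2 fold change of -0.52, and Col1a2 was listed at 0. Gsn, which with Col3a1 had the highest means of that list, and Tcf21 had the higher mean in females and did not pass. Of 12 endothelial markers, Vwf, Egfl7 and Eng passed as higher and Emcn as lower, with a median log2 fold change of 0.17. Pecam1 and Cdh5, with the highest means of that list, did not pass. Their log2 fold changes were 0.0038 and -0.038 by the authors' deposited table. Pericyte and smooth muscle markers passed as higher in 1 of 11 cases and mesothelial markers in 2 of 6 (Krt19 and Msln). In either list 0 passed as lower. Rgs5 of the first list and Wt1 and Krt18 of the second had the lower mean in females. Wt1, which with Msln had the highest means of its list, stood at a log2 fold change of -0.30 by the authors' deposited table. The pericyte and smooth muscle marker that passed was Des, a muscle intermediate filament that myocytes also make. Which cells its reads came from was not tested. By the authors' DESeq test, 0 neutrophil markers passed of 8, 0 T and NK cell markers of 14, 0 B cell markers of 5 and 0 mast cell markers of 8. Beside all these lists, 7.76% of all genes with a mean above 0 passed as lower in females and 6.71% as higher. At a mean of at least 50, 20.5% of genes passed in either direction. Fpr1 and Camp of neutrophils, Cd3d and Cd5 of T cells, Pax5 of B cells and Mcpt1 of mast cells were listed at 0, while other genes of these lists were detected. By the authors' deposited table, the overall mean was 367 for Tpsb2, 39.6 for Tpsab1 and 37.3 for Cpa3 among mast cell markers. Among T and NK cell markers it was 68.3 for Cd4, and 5.72, for Lck, or lower for every other gene. It was 0.972 for Cd3e and 0.432 for Cd3g. Among neutrophil markers, the overall mean was 6239 for Ncf1 and 183 for Lcn2 but 0.0823 for S100a8 by the authors' deposited table.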

How the data were processed

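Per the labels' protocols, paired-end stranded libraries were made from 650 ng of ribosome-depleted total RNA whose integrity number was 9 or higher. The submitters' processing notes name FastQC, Trimmomatic 0.32, TopHat2 2.0.12, HTSeq 0.6.1, DESeq and the build rn6. The annotation and the strand setting of the counting are not given in the sources used here. Per the file headers, the authors deposited mean normalized signal (gene counts over size factors) for all libraries and for each of 2 groups, a fold change as a ratio, its log2 value, a p-value and its adjusted value. The overall mean equalled 6 parts of group A and 5 of group B in all 13346 genes above 0, so A was read as males and B as females. The adjusted p-value is Benjamini-Hochberg over these genes.

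Each group mean, multiplied by its library count, adds up whole reads over size factors. Size factors were read from the smallest such sums, and whole reads were searched up to a male mean of 100 and a female mean of 200. Genes with exactly 1 solution were kept (4503 in males, 4978 in females). Counting a gene listed at 0 in 1 sex as 0 reads there, 4969 genes had reads in all 11 libraries known. Several solutions were found for 35 and 553 genes. Shifted values had a solution in 0% of trials at male means under 30 and female means under 100, and in 11% and 10.5% above, where single solutions are less certain. Simulated reads came back as the only solution in 71.2% to 100% of genes. The kept reads gave back the deposited fold change in 3938 of 3938 genes, which is no separate check. That fold change is the ratio of the group means that the reads were kept for matching. Keeping only low means selects genes, so tests on reads cover these genes alone.

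limma 3.58.1 in R 4.3.3, with a trend in the prior variance, was run on log2 of the normalized count plus 1 for 2142 recovered genes with a mean of at least 10. Of these, 18 (0.84%) passed, beside 95 (4.44%) by the authors' test. On data simulated for those genes with 200 changed, limma recovered 1.5% at a 1.5-fold change, 20.5% at 2-fold and 98.5% at 4-fold. It also called 0, 2 and 8 unchanged genes in these runs. Every simulated gene had the same variability between libraries beyond counting noise, so these rates may not hold for genes that vary more. Exact two-sided permutation tests used the same libraries, and 0 genes passed after adjustment, 332 (15.5%) before. The smallest p of this test, 0.00433, needs the sexes fully apart. Every female library lay below every male library in 23 genes and above in 26. These were too few for any adjusted permutation p to fall under 0.05, so failing that limit does not set a gene apart. At an unadjusted p under 0.05 limma called 369 genes (17.2%). The limma and permutation p-values set the difference between the sexes against the spread between these libraries.

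Members and gene lists were chosen with earlier results of these data known. Values are given in full for members past the authors' threshold of 0.05, with a mean of at least 50, or with a mean of at least 5 and recovered reads. Of other lists, the members past the threshold were named. The 2 with the highest mean were also named, except in the myocyte, pericyte and smooth muscle, B cell and mast cell lists. Other genes were chosen after their values were seen, including the checks of labels, of rows at 0, Tnf and receptors of named ligands. RefSeq GRCr8 gave gene order and promoters, with all 47 symbols matched. That build differs from rn6 and its coordinates were used for nothing else. The 37 rows named by an Ensembl identifier alone, with 57.5% of summed male and 50.7% of summed female means, were not used. The values of 1 member and 1 marker gene are not reported here, although counts over the members include that member.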

Additional observations from a re-analysis of the deposited data

Results flagged for a closer look

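In 11 of 48 groups of 5 or 6 libraries, 1 library stood apart from the others by Dixon's criterion, which chance meets in about 1 in 20 groups of continuous values. That rate does not hold for sparse counts, and in 6 of the 11 groups every read was in 1 library. Each case is a sparsely counted member, where a few reads in 1 library are enough to set it apart. The highest normalized counts were 18.2 for Ccl1, 6.70 for Ccl11 and 14.4 for Ccl20 in female library c. In female library b they were 5.43 for Cxcl13 and 0.905, a single read, for Cxcr3. Cxcr6 stood at 5.14 in female library d. Among males, library a held 0.852, a single read, for Ccl19 and 19.6 for Cxcr5. Male library b held 2.72 for Ccr9, male library d 24.8 for Ccr7 and male library f 8.63 for Cxcl3. For Ccl1, 19 of the 24 female reads were in that 1 library. Explanations for these libraries were not tested.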

How the results depend on the processing

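Of 175 alternative values for 14 results, 163 were counted as the same as the main value. For fold changes this meant the same direction and side of the threshold. For counts it meant a number near the main one, such as 3 members called at an adjusted p under 0.1, or 29 detected at a mean of at least 1. Recentring and rescaling kept the adjusted p as deposited, so these 2 settings could change a direction alone. The 2 members called lower in females became 0 at an adjusted p under 0.01, and 0 were called higher under any threshold tried. The 37 detected members became 19 at a mean of at least 10. With limma 0 of 8 tested members passed, and 3 did at an unadjusted p under 0.05. A pseudocount of 5 gave 1, Ccl12, at -1.72 with an adjusted p of 0.0409, and leaving out single libraries gave 0 to 1. Over all alternatives the limma adjusted p ranged from 0.0409 to 0.186 for Ccl12, from 0.0447 to 0.187 for Ccl4 and from 0.118 to 0.291 for Ccl3. The log2 fold changes ranged from -3.32 to -1.72, from -1.70 to -1.23 and from -0.96 to -0.66. With single libraries left out, the log2 fold change of Ccl6 ranged from -1.06 to 0.023, reversed without female library c, and that of Ccr1 from -1.25 to 0.093, reversed without female library a. Among the 2142 genes limma called 18, but 40 with a pseudocount of 5, 4 with one of 0.5, 3 to 29 with single libraries left out, and 0 without a trend in the prior variance, an alternative chosen after seeing the data. With no filter on low means it called 10. Rescaling by summed means shifted log2 fold changes by 0.062 and turned 1 member, Cxcl10, from 0.0017 to -0.061. No paired analysis was possible because recovered libraries carry no replicate number. Low counts limit members with few reads, and spread is unknown for the 8 members without recovered reads.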
